A study of Mus musculus with 3 samples.

Results

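Potassium channels set how easily an islet endocrine cell fires, and the mouse genes for their subunits were followed here through diet and an oral MNK kinase inhibitor. The genes were taken by symbol: every protein-coding gene whose name begins with Kcn, together with Abcc8 and Abcc9, the sulfonylurea receptor subunits of the ATP-sensitive potassium (KATP) channel. This gave 79 of the 24119 genes in the deposited tables, of which 16280 were protein-coding. Of the 79, 33 reached a scaled read count of 100 or more in at least 1 column of the tables and 46 stayed under 100 in every column, and these sets are described separately. Abcc9 lay just inside that limit, with a highest value of 106, and Kcnh3 just outside it, with 89.9.

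The RNA came from islets isolated from the pancreas of male mice of the strain C57BL/6, and the design has 3 groups of 1 library. ND stands for mice on the diet the submitters label ND, given DMSO by oral gavage. HFD_DMSO stands for mice fed a high-fat diet and given the same DMSO gavage, and HFD_CGP for mice fed a high-fat diet and given CGP 57380 by gavage, a small-molecule inhibitor of the MNK kinases that phosphorylate the translation factor eIF4E. All groups were gavaged for 1 month. A time of 4 months is also given, without saying whether it is an age or a feeding time, and how many animals went into a library is not stated. Since each group has 1 library, group and library cannot be told apart, no spread between animals was measured, and the calls used below are those of the authors' deposited tables, which rest on an assumed and not an estimated spread.

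In a beta cell, glucose metabolism raises the ratio of ATP to ADP, which closes KATP channels, depolarises the membrane and opens voltage-gated calcium channels that trigger insulin release. Voltage-gated and calcium-activated potassium channels then repolarise the membrane after each action potential, while 2-pore-domain channels carry a background leak that sets the resting potential. Most of these channels are assembled from a pore-forming subunit and auxiliary subunits that set its trafficking, gating or drug sensitivity.

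Reads on genes numbered 17129061 in ND, 16297611 in HFD_DMSO and 17623845 in HFD_CGP. Ins1 and Ins2, the insulin genes, took 15.3% of the reads in ND, 43.5% in HFD_DMSO and 19.1% in HFD_CGP, so the choice of scaling between libraries matters: with plain library totals in place of the authors' factors, log2 fold changes shift by -0.54 in HFD_DMSO over ND, by 0.65 in HFD_CGP over HFD_DMSO and by 0.02 in HFD_CGP over ND. Of the channel genes, 75, 71 and 75 had a read in ND, HFD_DMSO and HFD_CGP, and 68 had a read in all libraries. The tables list 76, 77 and 76 of them in the comparisons HFD_DMSO over ND, HFD_CGP over HFD_DMSO and HFD_CGP over ND.

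The sequence upstream of 6 of these genes is shown. Kcnj8 and Abcc9 are included as the KATP genes that the RefSeq promoter table holds, although Kcnj8 was not called in any comparison. The others were called in 2 or more comparisons and are in that table. Kcnn4 and Kcnk5 were called higher in HFD_DMSO than in ND and lower in HFD_CGP than in HFD_DMSO. Kcnf1 and Kcnh1 were called higher in HFD_CGP than in HFD_DMSO. Not all genes called in 2 or more comparisons are shown, and Kcnmb2, Kcnip4, Kcnj4, Kcne3 and Kcnt2 are among those left out. Each line gives the 250 bases before the RefSeq transcription start in GRCm38.p6, read in the direction of the gene. Capitals mark E-boxes, the letters CANNTG that basic helix-loop-helix factors such as NeuroD1 can bind.
Kcnj8: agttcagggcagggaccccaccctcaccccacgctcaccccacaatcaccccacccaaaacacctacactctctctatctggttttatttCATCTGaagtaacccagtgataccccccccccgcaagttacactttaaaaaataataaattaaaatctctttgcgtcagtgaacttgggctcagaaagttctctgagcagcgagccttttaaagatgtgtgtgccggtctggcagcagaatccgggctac
Abcc9: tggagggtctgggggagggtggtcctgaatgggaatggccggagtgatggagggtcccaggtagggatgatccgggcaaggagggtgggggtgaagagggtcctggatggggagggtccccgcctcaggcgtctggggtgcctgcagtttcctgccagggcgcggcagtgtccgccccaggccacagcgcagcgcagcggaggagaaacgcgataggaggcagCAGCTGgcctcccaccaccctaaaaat
Kcnn4: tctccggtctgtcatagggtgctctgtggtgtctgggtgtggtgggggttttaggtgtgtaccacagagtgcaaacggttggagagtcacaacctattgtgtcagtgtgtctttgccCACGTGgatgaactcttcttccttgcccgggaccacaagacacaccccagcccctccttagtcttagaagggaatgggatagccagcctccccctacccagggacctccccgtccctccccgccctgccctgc
Kcnk5: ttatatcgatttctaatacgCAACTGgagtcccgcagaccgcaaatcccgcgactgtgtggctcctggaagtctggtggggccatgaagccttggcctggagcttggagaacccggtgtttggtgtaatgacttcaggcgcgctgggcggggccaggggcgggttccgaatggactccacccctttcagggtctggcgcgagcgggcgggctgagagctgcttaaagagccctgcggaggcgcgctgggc
Kcnf1: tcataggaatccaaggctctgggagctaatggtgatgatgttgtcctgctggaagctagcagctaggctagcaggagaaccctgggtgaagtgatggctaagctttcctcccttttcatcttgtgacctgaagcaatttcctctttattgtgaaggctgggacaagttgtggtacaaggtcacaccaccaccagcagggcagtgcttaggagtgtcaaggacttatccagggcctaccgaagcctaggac
Kcnh1: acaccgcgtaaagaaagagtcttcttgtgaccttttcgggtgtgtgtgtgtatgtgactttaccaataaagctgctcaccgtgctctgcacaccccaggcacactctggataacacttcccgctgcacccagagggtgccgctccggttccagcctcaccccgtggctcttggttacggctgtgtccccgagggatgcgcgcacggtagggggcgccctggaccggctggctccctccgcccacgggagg
The windows lie at chr6:142571615-142571864 (- strand, Kcnj8), chr6:142702275-142702524 (- strand, Abcc9), chr7:24370013-24370262 (+ strand, Kcnn4), chr14:20181783-20182032 (- strand, Kcnk5), chr12:17176889-17177138 (- strand, Kcnf1) and chr1:192190527-192190776 (+ strand, Kcnh1). Kcnj8, Abcc9, Kcnn4 and Kcnk5 hold 1 E-box each, and Kcnf1 and Kcnh1 hold 0; over all 32851 windows of 250 bases, 66.2% hold at least 1. GC boxes, searched as GGGCGG on both strands, number 0 in Kcnj8, 1 in Abcc9, 1 in Kcnn4, 3 in Kcnk5, 0 in Kcnf1 and 1 in Kcnh1, against a share of 32.7% of all windows with at least 1, and none of these overlaps an E-box. TATAAA, on both strands, is in 12.4% of all windows and in 0 of these. The deposited gene starts of Abcc9 (142702315), Kcnk5 (20181809) and Kcnh1 (192190774) lie inside these windows. The E-box of Abcc9 therefore lies within the gene as deposited. A match is a description of letters and not of a bound site. The table matched 58 of the 79 genes by symbol.

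Per length, 2 genes dominated among the channel genes of the islet libraries. Levels between genes are given as RPKM, the density of reads per kilobase of deposited gene length at a common library size. Kcnk16, which encodes TALK-1, a 2-pore-domain channel known from pancreatic beta cells, stood at 226 RPKM in ND, 162 in HFD_DMSO and 191 in HFD_CGP. Abcc8, which encodes the sulfonylurea receptor SUR1, stood at 105, 133 and 205 RPKM in the same order. Together they made up 58.9%, 63.5% and 64.0% of the summed RPKM of the 79 genes, and Kcnk16 ranked above Abcc8 in ND and HFD_DMSO but below it in HFD_CGP. Only 8, 6 and 10 of the genes reached 10 RPKM in ND, HFD_DMSO and HFD_CGP.

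**Figure D1:**
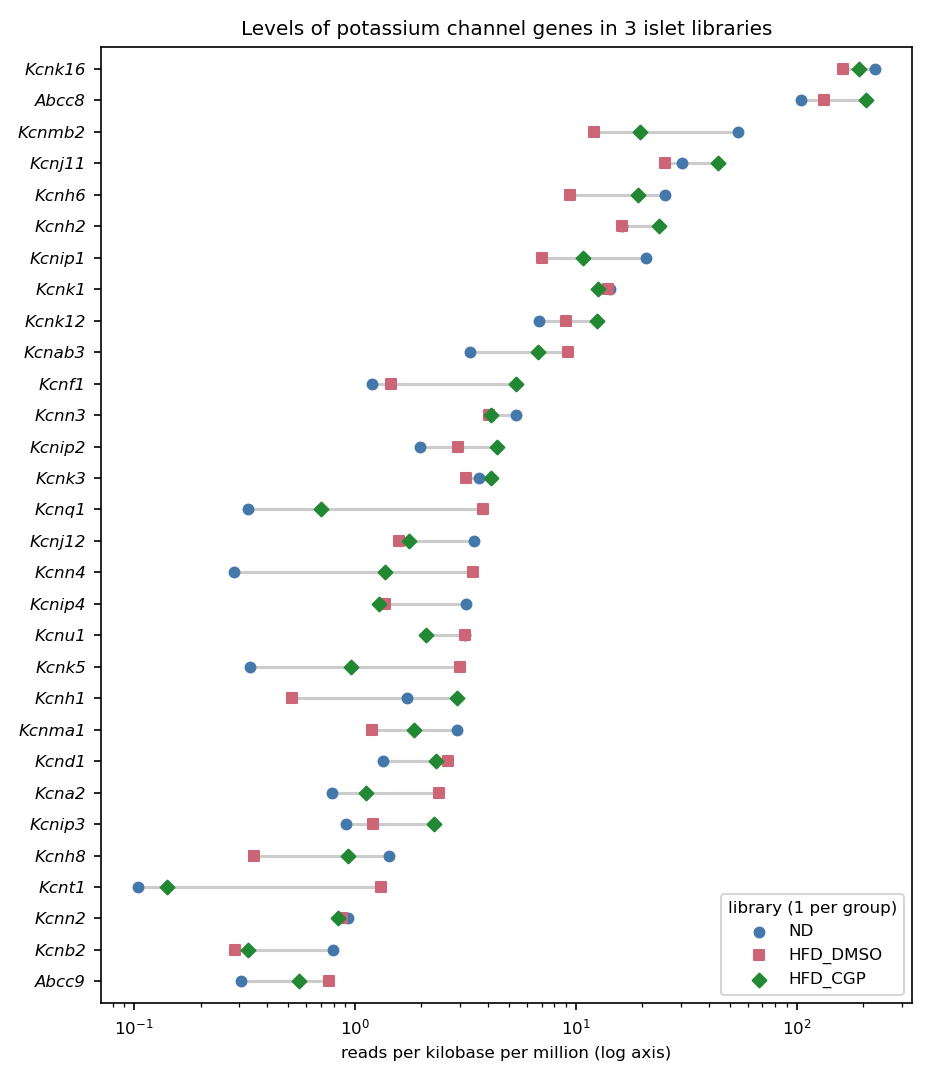
Levels of the named genes with 100 or more in any column, in RPKM on a log axis, with 1 point per library and a grey line joining the lowest and the highest. Kcnk16 and Abcc8 lie to the right of the other genes in each library, and Kcnt1, Kcnq1, Kcnn4 and Kcnk5 show HFD_DMSO well to the right of ND.

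Of the KATP genes, the beta-cell subunits were abundant and not called different in any comparison, and the subunits of the vascular type were scarce. Abcc8 had 16398 reads in ND, 13618 in HFD_DMSO and 33515 in HFD_CGP. Kcnj11, which encodes the pore subunit Kir6.2, had 2139, 1174 and 3264 reads. Of the 3 libraries HFD_CGP held the most reads for both genes. After scaling, the log2 fold change of Abcc8 was 0.34 in HFD_DMSO over ND, 0.53 in HFD_CGP over HFD_DMSO and 0.97 in HFD_CGP over ND, with adjusted p of 0.594, 0.58 and 0.123 in the authors' deposited tables. That of Kcnj11 was -0.25, 0.71 and 0.54, with adjusted p of 0.689, 0.396 and 0.461. The sign of the first Abcc8 value turns with library totals (-0.20) and with a correction for transcript GC content (-0.30), and the last Kcnj11 value turns with that correction (-0.17). The same correction takes Abcc8 in HFD_CGP over ND to 0.25 and Kcnj11 in HFD_DMSO over ND to -0.90. With library totals, both genes pass the rebuilt test in HFD_CGP over HFD_DMSO, at 1.19 for Abcc8 and 1.36 for Kcnj11.

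SUR1 and Kir6.2 assemble in equal number in the channel, and their transcripts were not equally abundant. Abcc8 exceeded Kcnj11 by a ratio of 3.48 in ND, 5.27 in HFD_DMSO and 4.67 in HFD_CGP, in RPKM. The genes are neighbours on chromosome 7, Kcnj11 at 46093953-46100764 and Abcc8 at 46104523-46180033, with 3758 bases between them.

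Kcnj8, which encodes the pore Kir6.1, had 17 reads in ND, 30 in HFD_DMSO and 15 in HFD_CGP. Abcc9, which encodes SUR2 and pairs with Kir6.1 in vascular smooth muscle and pericytes, had 49, 81 and 94 reads. Relative to the scaled libraries both stood highest in HFD_DMSO, at 0.932 RPKM for Kcnj8 and 0.766 RPKM for Abcc9. Abcc9 was called higher in HFD_DMSO than in ND, at a log2 fold change of 1.33 and an adjusted p of 0.0336 in the authors' deposited table, and it was not called in HFD_CGP over HFD_DMSO (-0.55) or HFD_CGP over ND (0.87). Kcnj8 was not called in any comparison, at 1.42, -1.75 and -0.24, with adjusted p of 0.0765, 0.0774 and 1. These genes are also neighbours, on chromosome 6 with 16247 bases between Kcnj8 at 142564837-142571614 and Abcc9 at 142587862-142702315. A list of 8 pericyte and smooth muscle markers summed to 185, 233 and 235 CPM (counts relative to the scaled library size) in ND, HFD_DMSO and HFD_CGP, with 3 called higher and 0 lower in HFD_DMSO over ND and none at 0 reads. Its part in the Abcc9 value was not tested. In whole islets, more cells of a type and more RNA per cell cannot be told apart, here and in every result below.

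Between the HFD_DMSO and ND libraries 26 channel genes were called at the assumed spread. The authors' deposited table called 12 higher in HFD_DMSO (15.8% of the 76 listed) and 14 lower (18.4%). Over all 22899 genes listed there, 12.6% were called higher and 13.2% lower, so the channel genes stood near the background in both directions. Among the 32 with 100 or more in either of the 2 columns, 7 were higher and 9 lower by 2-fold or more, where 16.3% and 21.7% of all such genes were. With library totals in place of the authors' factors the same test calls 8 higher and 19 lower, and Abcc9, Kcnab3, Kcne3 and Kcnj15 are no longer among the higher. The 33 genes at 100 or more had a median log2 fold change of -0.01, and all protein-coding genes at that level one of -0.13.

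Among the genes at 100 or more, the largest increases were in 4 that had few reads in ND. Kcnt1, which encodes the sodium-activated channel Slack, had 19 reads in ND, 158 in HFD_DMSO and 27 in HFD_CGP. Kcnn4, which encodes the intermediate-conductance calcium-activated channel of epithelia, red cells and lymphocytes, had 28, 222 and 142 reads. Kcnq1, a voltage-gated pore subunit of heart and epithelia, had 26, 197 and 58 reads. HFD_DMSO was the highest of the libraries for each, and HFD_CGP lay between it and ND. Kcnk5, which encodes the alkaline-activated leak channel TASK-2 known from kidney epithelium, followed the same order with 22, 128 and 66 reads.

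In HFD_DMSO over ND these 4 genes rose by a log2 fold change of 3.66 for Kcnt1 (95% counting interval 2.98 to 4.44), 3.59 for Kcnn4 (3.03 to 4.22), 3.52 for Kcnq1 (2.94 to 4.18) and 3.14 for Kcnk5 (2.49 to 3.88). The intervals are exact and cover counting error only. In the same order the authors' deposited table gives adjusted p of 1.52e-09, 3.62e-10, 1.69e-09 and 2.87e-07. These were the only channel genes still called, in any of the 3 comparisons, when the assumed biological coefficient of variation was raised from 0.2 to 0.4. In HFD_DMSO over ND each also stayed called with library totals and with GC content as an offset.

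In HFD_CGP over HFD_DMSO the same genes fell, by 3.31 on the log2 scale for Kcnt1, 2.53 for Kcnq1, 1.72 for Kcnk5 and 1.41 for Kcnn4, with adjusted p of 3.26e-08, 1.23e-05, 0.00787 and 0.0307 in the authors' deposited table. The HFD_DMSO library is in both comparisons, so these falls do not stand apart from the increases above. Set directly against ND, HFD_CGP gave log2 fold changes of 0.44 for Kcnt1, 1.09 for Kcnq1 and 1.51 for Kcnk5, none called, and Kcnn4 was called higher at 2.27 with an adjusted p of 0.000673. That Kcnn4 call is lost with GC content as an offset, and after GC correction the value is 1.31. Kcnq1 shares 121 exon bases (2.96%) with its antisense transcript Kcnq1ot1 in the annotation, and the use of strand in counting is not given in the sources used here. Kcnq1ot1 itself had 294, 217 and 238 reads and was not called in any comparison. Without strand, reads in the shared bases cannot be assigned to either.

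Summed levels of duct and fibroblast markers also were lowest in ND and highest in HFD_DMSO. The 7 duct markers summed to 485 CPM in ND, 873 in HFD_DMSO and 531 in HFD_CGP, with 5 called higher in HFD_DMSO over ND and 5 lower in HFD_CGP over HFD_DMSO. Krt19, a keratin of duct epithelium, had 40, 307 and 24 reads and so was lowest in HFD_CGP. The 2 duct markers called in neither comparison were Krt7, with 5741, 4319 and 7231 reads, and Epcam, with 2830, 1525 and 2311. The 6 fibroblast markers summed to 16.3, 420 and 88.4 CPM, with all 6 called higher in HFD_DMSO over ND and all 6 lower in HFD_CGP over HFD_DMSO. None of these markers was at 0 in any library, and their part in the channel results was not tested.

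**Figure D2:**
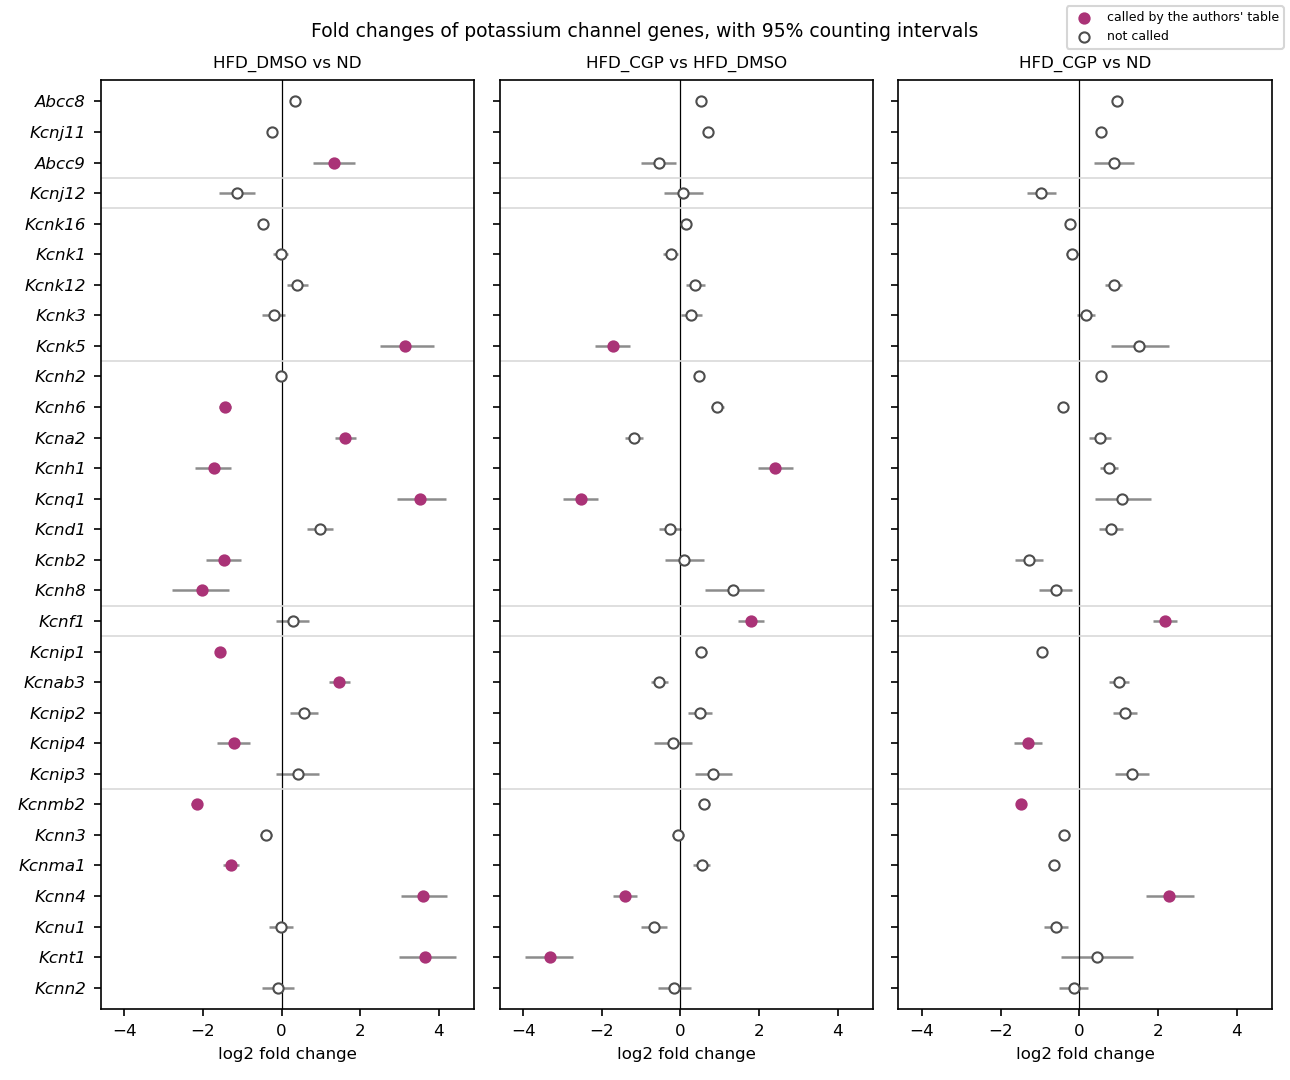
Log2 fold changes of the named genes with 100 or more in any column, in each comparison, with 95% counting intervals from the reads and filled points where the authors' deposited table calls the gene. Kcnt1, Kcnq1, Kcnn4 and Kcnk5 lie above 3 in the first panel and below -1.4 in the second.

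Among the 2-pore-domain leak channels, 2 of 11 were called higher in HFD_DMSO over ND and 0 lower, where 12.6% and 13.2% of all genes were, a count too small to read as particular to them. The 2 were Kcnk5 among the abundant genes and Kcnk2 among the scarce ones. Kcnk16 had 10384 reads in ND, 4870 in HFD_DMSO and 9146 in HFD_CGP, and its log2 fold changes of -0.48, 0.14 and -0.25 were not called. The acid-sensitive channel TASK-1, encoded by Kcnk3, had 281, 160 and 330 reads and fold changes of -0.20, 0.28 and 0.17. Kcnk1, which encodes TWIK-1, had 615, 396 and 568 reads and fold changes of -0.02, -0.24 and -0.18. None of these 3 genes was called in the deposited tables. With library totals Kcnk16 was at -1.02 in HFD_DMSO over ND, where the rebuilt test calls it lower, and after GC correction it was at -1.001, not called. After GC correction Kcnk3 was at -1.05 in HFD_DMSO over ND and turned to -0.67 in HFD_CGP over ND, and with library totals Kcnk1 turned to 0.41 in HFD_CGP over HFD_DMSO. Kcnk12, which encodes THIK-2, had 255, 221 and 489 reads and fold changes of 0.40, 0.38 and 0.87, none called, and both values against ND turn sign after GC correction (-0.63 and -0.12), the first also with library totals (-0.13). Antisense or other transcripts of the opposite strand cover 8.01% of the exon bases of Kcnk1 and 5.76% of those of Kcnk3, so their counts are uncertain to that extent. Kcnk2, which encodes the stretch-sensitive channel TREK-1, had 2, 18 and 6 reads and was called higher in HFD_DMSO over ND at 3.68, with a counting interval from 1.72 to 6.93. The annotation places an antisense transcript over 12.2% of its exon bases.

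The voltage-gated pore subunits of the Kv1, Kv2, Kv3, Kv4, KCNQ and EAG families form the largest group, with 27 genes of which 24 are in the HFD_DMSO over ND table. Of these, 2 were called higher and 6 lower, where 12.6% and 13.2% of all genes were. Kcnb2, which encodes the delayed rectifier Kv2.2, had 232, 55 and 100 reads and was called lower in HFD_DMSO over ND at -1.46 with an adjusted p of 0.011. That call is lost with GC content as an offset, and after GC correction the value is -0.26.

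Kcnh6, which encodes ERG2, had 1741, 420 and 1372 reads and was called lower in HFD_DMSO over ND at -1.44 with an adjusted p of 0.00522. Kcnh1, which encodes EAG1, had 243, 48 and 430 reads and was called lower at -1.73 with an adjusted p of 0.00235. Kcnh8, of the ELK branch, had 125, 20 and 86 reads and was called lower at -2.03 with an adjusted p of 0.0017. In each of these genes HFD_DMSO was the lowest library. Kcnh5, which encodes EAG2 and lies under 100 in every column, had 35, 5 and 22 reads and was also called lower, at -2.17. Kcnh2, which encodes ERG1, the channel also known as hERG in human heart, had 1520, 988 and 2324 reads and was not called in any comparison, at -0.01, 0.47 and 0.55. After GC correction its values against ND were -0.98 in HFD_DMSO and -0.44 in HFD_CGP.

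Kcnh1 was also called in the inhibitor comparison. It was called higher in HFD_CGP over HFD_DMSO at a log2 fold change of 2.40, with a counting interval from 1.97 to 2.86 and an adjusted p of 3.29e-05 in the authors' deposited table. Against ND its value in HFD_CGP was 0.76 and not called. Kcnh6 was at 0.94 in HFD_CGP over HFD_DMSO and Kcnh8 at 1.34, neither called. With library totals the rebuilt test also calls Kcnh2 (1.12), Kcnh6 (1.59) and Kcnh8 (1.99) higher there.

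Kcna2, which encodes Kv1.2 of axons, had 180, 362 and 270 reads and was called higher in HFD_DMSO over ND at 1.62 with an adjusted p of 0.00228. Its value of -1.19 in HFD_CGP over HFD_DMSO had an adjusted p of 0.0776. Kcnd1, which encodes the A-type channel Kv4.1, had 137, 177 and 249 reads and fold changes of 0.98, -0.27 and 0.80, none called. Under 100 in every column, Kcnc2, which encodes Kv3.2, had 76, 10 and 42 reads and was called lower in HFD_DMSO over ND at -2.30.

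The modifier subunits do not form channels alone and change the gating of Kv2 channels. Kcnf1, which encodes Kv5.1, had 110 reads in ND, 88 in HFD_DMSO and 518 in HFD_CGP, so it stood high in the inhibitor library and at a like level in the other two. It was called higher in HFD_CGP over HFD_DMSO at 1.79 (counting interval 1.46 to 2.13, adjusted p 0.0027) and in HFD_CGP over ND at 2.17 (1.87 to 2.48, adjusted p 0.000163), and it was not called in HFD_DMSO over ND (0.29). Kcnf1 was the only one of the 5 genes called in HFD_CGP over ND that kept its call with GC content as an offset. Kcng3, under 100 in every column, had 53, 7 and 20 reads and was called lower in HFD_DMSO over ND at -2.29.

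Of the 10 auxiliary subunits of voltage-gated channels, 3 were called higher and 2 lower in HFD_DMSO over ND, where 12.6% and 13.2% of all genes were, and nothing is read from so small a count. Kcnip1 encodes a calcium-binding partner of Kv4 channels and had 2489 reads in ND, 552 in HFD_DMSO and 1351 in HFD_CGP. It was called lower in HFD_DMSO over ND at -1.56 with an adjusted p of 0.0022. Kcnip4, of the same family, had 222, 63 and 94 reads. It was called lower in HFD_DMSO over ND at -1.21 and in HFD_CGP over ND at -1.30. Both calls are lost with GC content as an offset, and after GC correction the values are -0.03 and -0.48. The exons of Kcnip4 overlap other transcripts of the opposite strand over 7.36% of their bases. Kcnip2 had 132, 129 and 308 reads and Kcnip3, also known as the transcriptional repressor DREAM, had 62, 54 and 163. Neither was called in any comparison, with values in HFD_CGP over ND of 1.16 and 1.33. After GC correction these values were 0.51 and 0.79. With library totals the rebuilt test calls Kcnip3 higher in HFD_CGP over ND (1.35) and in HFD_CGP over HFD_DMSO (1.48). Kcnab3, a cytoplasmic beta subunit, had 184, 332 and 389 reads and was called higher in HFD_DMSO over ND at 1.46. That call is lost with GC content as an offset, and after GC correction the value is 0.94. Kcnab3 shares 147 exon bases (5.13%) with the antisense gene Kcnab3os.

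The single-span KCNE subunits, partners of Kcnq1 and other pores, lie under 100. Kcne4 had 15 reads in ND, 64 in HFD_DMSO and 38 in HFD_CGP and was called higher in HFD_DMSO over ND at 2.69 with an adjusted p of 6.98e-05. Kcne3, which keeps Kcnq1 channels open in intestinal and airway epithelium, had 8, 23 and 6 reads. It was called higher in HFD_DMSO over ND at 2.11 and lower in HFD_CGP over HFD_DMSO at -2.67, with adjusted p of 0.0185 and 0.0119. HFD_DMSO was thus the highest library for both genes, as it was for Kcnq1.

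Of the 11 genes grouped as calcium- or sodium-activated, 3 were called higher and 2 lower in HFD_DMSO over ND. Over all genes the shares were 12.6% and 13.2%, and nothing is read from so small a count. Kcnu1, described below, is in this group by its symbol. Kcnmb2 encodes the inactivating beta2 subunit of the BK channel and was the third most abundant channel gene in ND. It had 3260 reads in ND, 480 in HFD_DMSO and 1228 in HFD_CGP, or 54.0, 12.1 and 19.4 RPKM. It was called lower in HFD_DMSO over ND at -2.15 with an adjusted p of 1.88e-05 and lower in HFD_CGP over ND at -1.47 with an adjusted p of 0.011. With GC content as an offset both calls are lost, and after GC correction the values are -0.98 and -0.65. Kcnma1, the BK pore, had 949, 255 and 632 reads and was called lower in HFD_DMSO over ND at -1.28. This call is also lost with that offset, and after GC correction the value is -0.52. For both BK genes ND was the highest library and HFD_DMSO the lowest.

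The small-conductance channel genes, relatives of Kcnn4, were not called at 100 or more. Kcnn3 had 1077, 535 and 868 reads and fold changes of -0.40, -0.07 and -0.38. Kcnn2 had 131, 81 and 124 reads and fold changes of -0.08, -0.15 and -0.14. Kcnu1, which encodes the pH-sensitive channel of sperm, had 228, 148 and 158 reads and fold changes of -0.01, -0.67 and -0.59. None of the 3 was called in any comparison. Kcnt2, which encodes Slick, the relative of Slack, had 0 reads in ND, 9 in HFD_DMSO and 0 in HFD_CGP. It was called higher in HFD_DMSO than in ND and lower in HFD_CGP than in HFD_DMSO. Against a floor of 3 reads in the empty library, Kcnt2 was 4.58-fold higher in HFD_DMSO than in ND. On the same floor it was 5.1-fold lower in HFD_CGP than in HFD_DMSO. These ratios leave out the counting error of the 9 reads and are not lower bounds. The counting interval of the log2 fold change starts at 1.59 in HFD_DMSO over ND and ends at -1.75 in HFD_CGP over HFD_DMSO.

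The inward rectifiers outside the KATP pair were scarce. Kcnj12, which encodes Kir2.2, was the only one at 100 or more and had 183 reads in ND, 55 in HFD_DMSO and 98 in HFD_CGP. Its log2 fold changes of -1.12, 0.07 and -0.97 were not called. With GC content as an offset it is called lower in both comparisons with ND, where the values after GC correction are -1.72 and -1.63. Kcnj3 and Kcnj6 encode GIRK1 and GIRK2, channels opened by G protein-coupled receptors. Kcnj3 had 52, 7 and 25 reads, and Kcnj6 52, 9 and 23. Both were called lower in HFD_DMSO over ND, at -2.27 and -1.91. Both calls are lost with that offset, and after GC correction the values are -1.32 and -1.52. A noncoding gene of the opposite strand covers 31.1% of the exon bases of Kcnj3. Kcnj4, which encodes Kir2.3, had 35, 6 and 53 reads. It was called lower in HFD_DMSO over ND at -1.92 and higher in HFD_CGP over HFD_DMSO at 2.36, with adjusted p of 0.0412 and 0.0185. Kcnj15, which encodes Kir4.2, had 4, 14 and 8 reads and was called higher in HFD_DMSO over ND at 2.37.

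**Figure D3:**
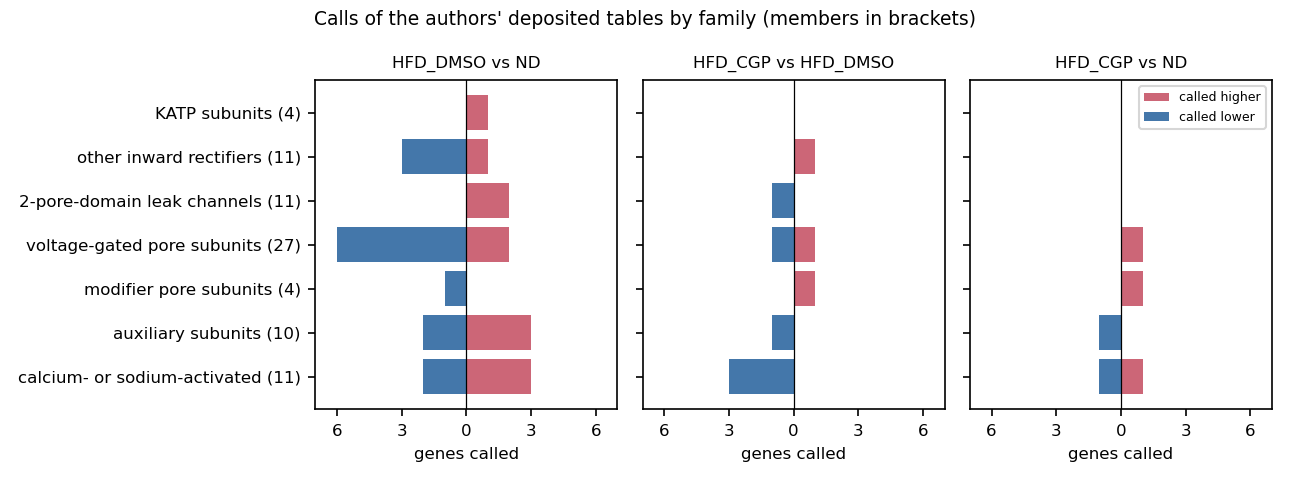
Number of genes the authors' deposited tables call higher (right of 0) and lower (left of 0) per family and comparison, with the number of genes of each family in brackets. In HFD_DMSO over ND the leak channels have 2 higher and 0 lower, and the voltage-gated pore subunits 2 higher and 6 lower. Of all genes listed in that comparison, 12.6% were called higher and 13.2% lower.

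The inhibitor comparison, HFD_CGP over HFD_DMSO, asks what differed with CGP 57380 under the same diet. The authors' deposited table called 3 of the 77 listed channel genes higher, which were Kcnh1, Kcnf1 and Kcnj4 (3.90%, against 1.4% of all 22208 genes). It called 6 lower, which were Kcnt1, Kcnq1, Kcnk5, Kcnn4, Kcne3 and Kcnt2 (7.79%, against 4.95%). At 100 or more in either column, 2 of 29 were higher and 5 lower by 2-fold or more, where 3.85% and 6.14% of all such genes were. Each of the 9 called genes stayed called with GC content as an offset, which calls 4 higher and 11 lower in all. With library totals the split turns to 17 higher and 3 lower. The median log2 fold change of the 33 genes was 0.14, near the 0.12 of all protein-coding genes at that level. The 3 lower genes with library totals were Kcnq1, Kcnt1 and Kcnt2, so the calls of Kcnk5 (-1.07), Kcnn4 (-0.76) and Kcne3 (-2.03) were lost under that scaling.

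The inhibitor comparison and HFD_DMSO over ND share the HFD_DMSO library, and the comparison of HFD_CGP with ND does not use it. In the latter the authors' deposited table called 3 of 76 channel genes higher, Kcnn4 and Kcnf1 among them (3.95%, against 4.57% of all 23063 genes), and 2 lower, which were Kcnmb2 and Kcnip4 (2.63%, against 4.36%). By 2-fold or more, 6 of 29 were higher and 3 lower, where 12% and 10.6% of all such genes were. With library totals the split was 4 higher and 1 lower, without the call of Kcnip4. The median of the 33 genes was 0.52 and that of all protein-coding genes at that level 0.05, and after GC correction the median of the 33 genes was -0.17.

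Fold changes followed the base composition of the transcripts in both comparisons with ND, and this bears on the channel genes because their transcripts are rich in G and C. Across genes at 100 or more in either column, Spearman's rho between log2 fold change and transcript GC content was 0.61 over 11253 genes in HFD_DMSO over ND, -0.18 over 11052 in HFD_CGP over HFD_DMSO and 0.70 over 11387 in HFD_CGP over ND. Across the channel genes it was 0.42 (32 genes), -0.04 (29) and 0.58 (29). Genes are not independent replicates, all points of a comparison share the same 2 libraries, and these values are descriptions. In HFD_DMSO over ND the median was -1.17 in the 10% of genes lowest in GC and 0.90 in the 10% highest in GC. The median GC content was 55.2% for the channel genes and 50.1% for all genes. With GC content as an offset in a test at the same dispersion, 11 of the 12 genes called higher in HFD_DMSO over ND kept the call, Kcnab3 being the exception, and 8 of the 14 called lower did. The 6 that lost it were Kcnmb2, Kcnma1, Kcnb2, Kcnip4, Kcnj6 and Kcnj3, and Kcnj12, Kcnn1 and Kcna3 were called lower in addition. What causes the relation to GC content was not tested.

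**Figure D4:**
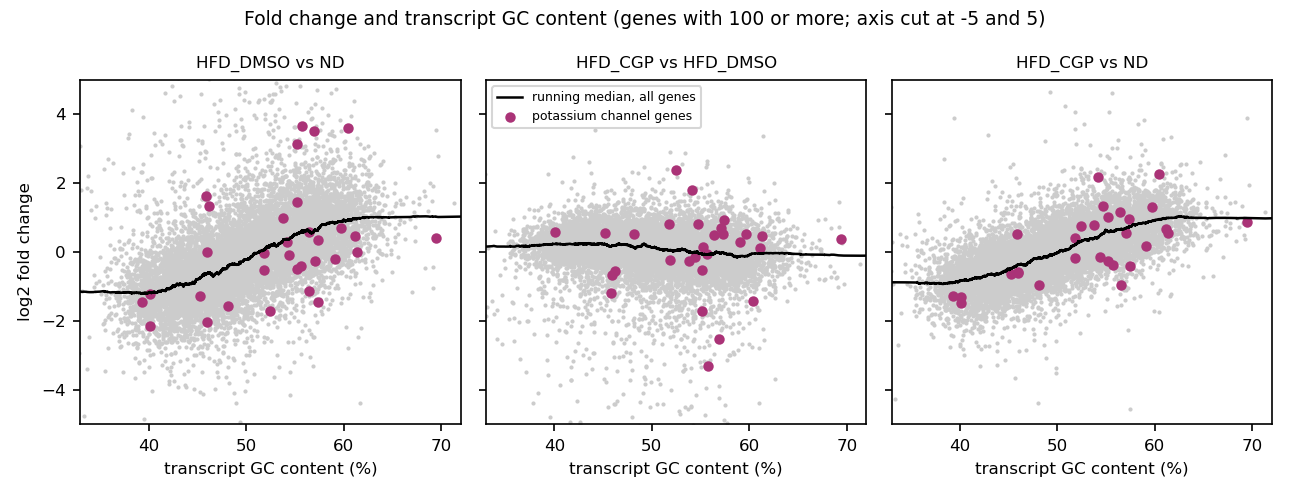
Log2 fold change against transcript GC content in percent for genes at 100 or more in either column (grey), with the running median of all genes (line) and the channel genes (coloured). The line climbs from near -1.17 at low GC content to near 0.90 at high GC content in HFD_DMSO over ND and is nearly flat in HFD_CGP over HFD_DMSO.

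The scarce genes add little beyond those named. Of the 46 under 100 in every column, 15 had fewer than 10 reads in every library. In HFD_DMSO over ND, 32 of the 43 listed were not called, in HFD_CGP over HFD_DMSO 41 of 44, and in HFD_CGP over ND all 43. Called higher and lower were 5 and 6, 1 and 2, and 0 and 0 in the same order. Of all genes listed there, 12.6% and 13.2%, 1.4% and 4.95%, and 4.57% and 4.36% were called. The scarce channel genes are not shown to differ from these shares. Their reads ranged from 0 to 92 among the voltage-gated pore genes, from 0 to 90 among the auxiliary subunits, from 0 to 73 among the calcium- and sodium-activated genes, from 0 to 53 among the inward rectifiers and the modifiers, and from 0 to 26 among the leak channels. Kcnrg, whose product regulates Kv assembly, had 9, 4 and 7 reads. For a gene without reads the upper limit is 3 reads, or 0.156, 0.237 and 0.149 CPM in ND, HFD_DMSO and HFD_CGP, so at this depth it was not detectable and is not shown to be absent.

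Other genes of beta-cell excitability were called in both directions against ND. Of 27 genes for glucose entry and phosphorylation, sodium, calcium, TRP, chloride and HCN channels and ion pumps, the authors' deposited tables called 5 higher and 5 lower in HFD_DMSO over ND, 0 in HFD_CGP over HFD_DMSO, and 4 higher and 4 lower in HFD_CGP over ND. The shares of all genes called were 12.6% and 13.2%, 1.4% and 4.95%, and 4.57% and 4.36%, and the list is not shown to differ from them. Slc2a2, the glucose transporter of mouse beta cells, fell from 20546 reads in ND to 1931 in HFD_DMSO, with 3476 in HFD_CGP, at log2 fold changes against ND of -2.80 and -2.63. The sodium channel genes Scn9a (-2.01 and -2.30) and Scn3a (-1.75 and -1.41) were called lower against ND in both high-fat libraries. The calcium channel pore gene Cacna1d (-1.20) and its auxiliary subunit Cacna2d1 (-1.19) were called lower in HFD_DMSO over ND. Among the genes called higher in HFD_DMSO over ND were Ano1 (2.004), Lrrc8a (1.99), Hcn2 (1.43) and Cacnb3 (1.21). In HFD_CGP over ND, Hcn2 (1.86), Lrrc8a (1.74) and Cacnb3 (1.37) were called higher, and Trpm5 (-1.37) was called lower with the 3 named above. After subtraction of the GC trend the values in HFD_DMSO over ND were -1.67 for Slc2a2, -1.001 for Scn9a, -0.68 for Scn3a, -0.01 for Cacna2d1, 0.41 for Hcn2 and 0.24 for Cacnb3. Of 13 partner proteins of potassium channels, 11 were measured, and 1 was called: Dpp10, a partner of Kv4 channels, fell from 843 reads in ND to 118 in HFD_DMSO and 278 in HFD_CGP, at -2.23 and -1.67, or -1.03 and -0.80 after that subtraction.

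Markers of the islet cells and of other cells differed between the libraries, and their part in the channel results was not tested. Summed over a list and given in CPM for ND, HFD_DMSO and HFD_CGP, beta-cell markers stood at 138910, 562921 and 168540, mostly insulin. Of these 7 genes, 2 were called higher in HFD_DMSO over ND, both insulin genes, and 1 lower, with a median log2 fold change of 0.09. Alpha-cell markers summed to 21784, 5527 and 10788, and delta-cell markers to 3469, 3449 and 2769. Acinar markers summed to 11408, 3004 and 59.6, endothelial markers to 233, 592 and 720, and macrophage markers to 48.2, 132 and 100.2. Lymphocyte markers summed to 28.7, 32.5 and 16.6, with 5 of 7 called higher and 1 lower in HFD_DMSO over ND and 3 called lower in HFD_CGP over HFD_DMSO. Schwann cell and neuron markers summed to 58.0, 73.2 and 91.7. All markers listed and measured had reads in every library apart from 1 lymphocyte gene in ND, islet hormone genes and genes of other cells included.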

How the data were processed

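Islet RNA was profiled in 3 libraries, 1 per group (ND, HFD_DMSO, HFD_CGP). Per the labels' protocols, flash-frozen islets were taken up in Trizol, and 1 ug of RNA went into TruSeq libraries. Not given in the sources used here are the aligner, the counter, the genome build and whether strand was used. The submitters' processing notes name DESeq2 1.10.1.

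For each of the 3 pairs of groups there is a full table made by the authors. Its signal columns are read counts that the authors scaled to a library size common to both groups, separately in each table. The deposited log2 column is the fold change within the pair, first-named group over second, and the p-value columns deposited with it hold the raw p and its Benjamini-Hochberg adjusted value over the table. The gene length per gene is also the authors' own. Unused columns of per-sample values numbered 0.

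Whole reads were recovered from the smallest steps of each column: 99.8% or more of the values of every column were whole to within 0.1 read, as were 100% of values below 1000 reads. The deposited results were rebuilt by edgeR 4.0.16 (exact test, TMM factors, fixed dispersion of 0.04, at least 2 reads over the pair), with 0 calls different in each table. No label records this test; it was inferred because the recomputed values match. The design had planned no test of its own, since the groups hold 1 library each, and calls are those of the authors' deposited tables at an adjusted p under 0.05. Counting intervals (exact, 95%) and floors (3 reads) cover counting error only, and reads without molecular identifiers are not independent molecules. RPKM values were computed from the recovered reads with TMM factors over the 3 libraries.

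The genes named are the KATP subunits, all members at 100 or more in any column and the called ones below. Some genes this rule names are not reported here, though counts and medians include them. The members and gene lists were chosen with earlier results of these data known. Alternatives were other scalings (library totals, totals without insulin, DESeq2 1.42.0 size factors), a pseudocount of 10, other level filters, a coefficient of variation of 0.4, subtraction of a running median over transcript GC content and, added after seeing the data, that trend as an offset in a likelihood ratio test. The scripts were tested on simulated data. Coordinates are those of the tables, and 76 of the 79 genes have the same ones in GENCODE M21 on GRCm38, from which GC content and exon overlaps were taken. Promoter windows are from RefSeq.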

Additional observations from a re-analysis of the deposited data

How the results depend on the processing

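The main limit is that each group has 1 library, so that no library could be left out and the deposited calls rest on an assumed spread. No paired analysis was possible because each group has 1 library, so that no pairs of samples exist. With a coefficient of variation of 0.4, the calls among the channel genes fell to 4 higher and 0 lower in HFD_DMSO over ND, and to 0 higher and 0 lower in each of the other comparisons. Over all genes that setting left 526, 171 and 81 calls.

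With library totals, 17 genes were called higher and 3 lower in HFD_CGP over HFD_DMSO and 1 lower in HFD_CGP over ND, and by 2-fold or more 14 were higher and 3 lower in HFD_CGP over HFD_DMSO. The median of the 33 genes became -0.55 in HFD_DMSO over ND and 0.80 in HFD_CGP over HFD_DMSO. Library totals without insulin gave medians of 0.032 and 0.28 in the same order. With GC content as an offset, 11 genes were called lower in HFD_CGP over HFD_DMSO and 1 higher in HFD_CGP over ND. Subtracting the GC trend left 2 genes higher by 2-fold or more in HFD_CGP over ND and moved the medians to -0.30 in HFD_DMSO over ND and -0.17 in HFD_CGP over ND.

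With a level limit of 10 in place of 100, genes past 2-fold numbered 14 higher and 16 lower in HFD_DMSO over ND, 9 and 12 in HFD_CGP over HFD_DMSO, and 11 and 8 in HFD_CGP over ND. With no limit they numbered 17 and 22, 16 and 15, and 16 and 10. The median in HFD_CGP over ND became 0.015 with a limit of 10 and -0.025 with none. The cause of these shifts was not tested beyond the number of genes each limit lets in.

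For single genes, no called value changed sign under any of these settings. Over the 102 fold changes of the genes at 100 or more and Kcnj8, a pseudocount of 10 left every one inside its counting interval, and subtracting the GC trend moved 55 outside it. In the rebuilt test, DESeq2 size factors added 2 calls and lost 1, library totals added 15 and lost 5, and totals without insulin added 2 and lost 3. Reads limit the scarce genes most: Kcnk2 at 2, 18 and 6 reads has a counting interval of 1.72 to 6.93 on the log2 scale.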

Other observations

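Noncoding genes at the channel loci were measured beside the protein-coding ones. Kcnq1ot1, the antisense RNA of the Kcnq1 locus, had log2 fold changes of 0.17 in HFD_DMSO over ND, -0.63 in HFD_CGP over HFD_DMSO and -0.37 in HFD_CGP over ND, and the authors' deposited tables did not call it, with adjusted p of 0.829, 0.503 and 0.691. Kcnab3os, antisense to Kcnab3, had 8 reads in ND, 1 in HFD_DMSO and 7 in HFD_CGP and was not called. Kcnd3os had 0 reads in ND, 0 in HFD_DMSO and 3 in HFD_CGP. Genes at these loci that overlap on opposite strands cannot be told apart where their exons coincide, if reads were counted without strand.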
